A study of Caenorhabditis elegans with 72 samples.

Results

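Fatty acid desaturases and elongases set the chain length and the number of double bonds of the fatty acids that *C. elegans* builds into membranes and fat stores. The 10 genes described here were chosen by name: the desaturases *fat-1*, *fat-2*, *fat-3*, *fat-4*, *fat-5*, *fat-6* and *fat-7* and the elongases *elo-1*, *elo-2* and *elo-5*. All 10 were found among the 46624 genes of the deposited expression table through their WormBase identifiers. Of these, 6 had values above 0 (*fat-1*, *fat-2*, *fat-6*, *elo-1*, *elo-2* and *elo-5*), and the other 4 (*fat-3*, *fat-4*, *fat-5* and *fat-7*) were listed at 0 in every genotype.

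Unlike mammals, *C. elegans* can make all of its polyunsaturated fatty acids from saturated precursors. ELO-2 extends palmitic acid to stearic acid, FAT-6 and FAT-7 convert stearic acid into oleic acid, and FAT-5 introduces a double bond into palmitic acid itself. FAT-2 then makes linoleic acid, and FAT-3, ELO-1 and FAT-4 extend and desaturate it further towards arachidonic acid. FAT-1 adds the double bond that sets the series of alpha-linolenic and eicosapentaenoic acid apart from that of linoleic and arachidonic acid. ELO-5 acts in a separate branch, the synthesis of monomethyl branched-chain fatty acids. The intestine is the main site of fat storage in this animal, and several of these enzymes are known to be expressed there.

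RNA was sequenced from whole animals at the late L4 stage, grown on *E. coli* OP50, to ask how loss of IL-17 signalling alters transcription. There were 4 genotypes. In 3 of them the *npr-1* mutation was combined with loss of *malt-1* (the paracaspase of the pathway), of *ilc-17.1* (the IL-17 ligand) or of *nfki-1* (an IκB-like protein), and *npr-1* animals served as their control. The mutation in *npr-1*, a neuropeptide receptor gene, was therefore shared by all groups, which the labels place in the AX204 strain background. The double mutants are named below by the gene that distinguishes them. The labels list 72 samples, 18 of each genotype, without naming the alleles. The study's methods give fewer independent biological replicates than samples for each genotype. The table holds 1 value pooled by the authors for each genotype in each comparison, so no value below has a replicate error and no test was made.

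The values are FPKM, read counts scaled to the length of the transcript and to the number of mapped reads. Differences are given as log2((FPKM + 1) of the first-named genotype over (FPKM + 1) of the other), and a gene is counted as higher or lower past 0.25 on this scale, among genes with at least 1 FPKM in the genotype it is set against. The numbers of reads per library are not part of the table, so the depth behind each value is unknown. For the 6 genes, the value of the same genotype differed by 0.41% to 2.04% between comparisons. Each mutated gene was lowest in its own mutant: *nfki-1* was at 8.94 FPKM in *nfki-1* mutants and at 17.97 to 23.9 FPKM in the other genotypes, *malt-1* at 3.99 FPKM in *malt-1* mutants and at 6.36 to 8.29 FPKM elsewhere, and *ilc-17.1*, under 1 FPKM throughout, at 0.157 FPKM in its mutant and 0.222 to 0.310 FPKM elsewhere.

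Of the 10 genes, 8 lie on chromosome IV and 2, *fat-5* and *fat-7*, on chromosome V. In the table's coordinates, whose genome build is not given in the sources used here, *fat-1* (WBGene00001393) spans IV:13315644-13318811 and *fat-2* (WBGene00001394) IV:13323850-13326394. These neighbours are on the same strand and 5061 bases apart in the WBcel235 annotation. The other genes with values are *fat-6* (WBGene00001398) at IV:11913691-11916126, *elo-1* (WBGene00001239) at IV:9526359-9528350, *elo-2* (WBGene00001240) at IV:17466060-17467408 and *elo-5* (WBGene00001243), whose interval IV:5369797-5377275 the table shares among 8 genes. All 6 are annotated as protein-coding. The genes listed at 0 are *fat-3* (WBGene00001395) at IV:9803023-9806119, *fat-4* (WBGene00001396) at IV:9799429-9802638, *fat-5* (WBGene00001397) at V:17725004-17730381 and *fat-7* (WBGene00001399) at V:7151353-7153146.

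A listed 0 could not be read as absence of the transcript. The table lists 3264 of 19701 protein-coding genes, or 16.6%, at 0 in all genotypes and comparisons. Among them are genes that growing animals need, such as *pod-2* and *fasn-1*, which encode acetyl-CoA carboxylase and fatty acid synthase, and *rpl-37*, 1 of 76 genes for cytosolic ribosomal proteins. No fold change is given for *fat-3*, *fat-4*, *fat-5* or *fat-7*. *fat-6* and *fat-7* are close paralogs, and how the authors' counting divided reads that match both is not given, so the value of *fat-6* is uncertain to that extent.

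The 6 measured genes were among the most abundant transcripts of the animal. In every genotype, each of the 6 had a higher level than 94.1% to 98.9% of the genes with at least 1 FPKM. Per length, *fat-2* was highest in each genotype and *elo-1* next. The next places were close to each other: *fat-6* stood above *fat-1* in *malt-1* and *nfki-1* mutants (1.16 and 1.04 times its level), and below it in *ilc-17.1* mutants and *npr-1* animals (0.763 and 0.905 times). *elo-5* and *elo-2* were the lowest, and their order also changed, with *elo-2* at 1.02 times the level of *elo-5* in *ilc-17.1* mutants and at 0.888, 0.911 and 0.8795 times in *malt-1* mutants, *nfki-1* mutants and *npr-1* animals. Without replicate values it cannot be said whether neighbours in this order differ beyond their spread. Together the 6 genes summed to 3879 FPKM in *malt-1* mutants, 3588 FPKM in *ilc-17.1* mutants and 3599 FPKM in *nfki-1* mutants, against 3989 FPKM in *npr-1* animals.

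**Figure D1:**
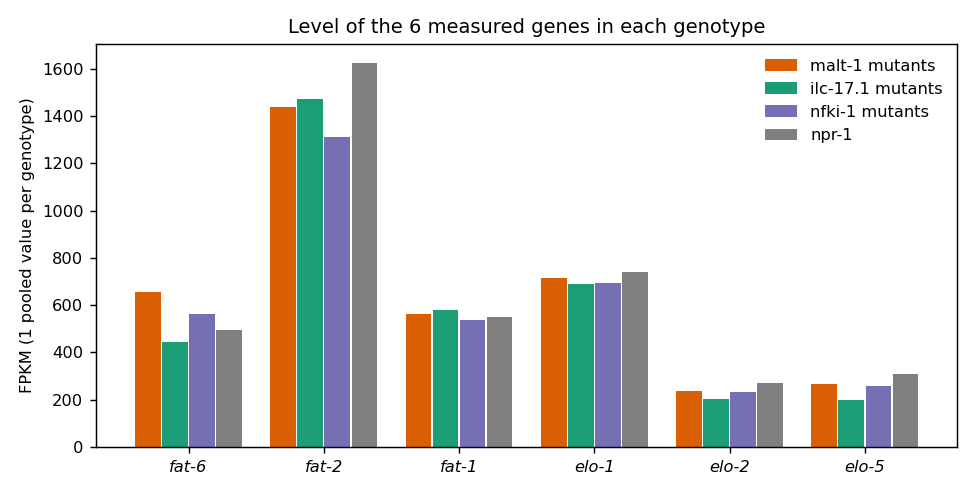
Level in FPKM (vertical axis) of the 6 measured desaturase and elongase genes in mutants of *malt-1*, of *ilc-17.1* and of *nfki-1* and *npr-1* animals, each bar 1 value pooled by the authors, with no error available. *fat-2* is the highest in all 4 genotypes, *fat-6* is highest in *malt-1* mutants at 657 FPKM, and *elo-5* is lowest in *ilc-17.1* mutants at 198 FPKM.

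*fat-6*, the stearic acid desaturase that opens the unsaturated branch, was the one gene of the 6 measured members whose level stood above *npr-1* by more than the fold used here. It was at 657 FPKM in *malt-1* mutants, 443 FPKM in *ilc-17.1* mutants and 562 FPKM in *nfki-1* mutants, against 497 to 503 FPKM in *npr-1* animals. The log2 differences from *npr-1* were 0.40, -0.19 and 0.17 in this order of mutants. The value of *ilc-17.1* mutants was near the median of genes with at least 100 FPKM (-0.18) and was -0.02 when the FPKM of each genotype were rescaled to the same sum. In *malt-1* mutants, 92.5% of all genes compared had a smaller value of the difference than *fat-6*, and 3.53% of the 1559 genes with at least 100 FPKM in *npr-1* had a larger one. The table gives *fat-6* a shared interval with ZK822.9, a gene on the opposite strand that does not overlap it in WBcel235 and was under 3 FPKM in all genotypes.

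*fat-2*, which converts oleic into linoleic acid, was below *npr-1* in each mutant. Its level was 1439.9 FPKM in *malt-1* mutants, 1474 FPKM in *ilc-17.1* mutants and 1313 FPKM in *nfki-1* mutants, against 1624 to 1648 FPKM in *npr-1* animals. The log2 differences were -0.17, -0.16 and -0.32, of which that of *nfki-1* mutants passed the fold. *fat-1*, the neighbour of *fat-2* and also a desaturase gene of the polyunsaturated branch, differed least of the 6 genes with the deposited scaling. It was at 564, 580.1 and 538 FPKM in mutants of *malt-1*, of *ilc-17.1* and of *nfki-1*, against 549 to 556 FPKM in *npr-1* animals, with log2 differences of 0.04, 0.06 and -0.04. After rescaling, the differences of *fat-1* were 0.03, 0.23 and 0.06, and in *ilc-17.1* mutants those of *fat-2* (0.01), *fat-6* (-0.02) and *elo-1* (0.05) were smaller in size. The 2 neighbouring genes therefore did not keep the same ratio: *fat-2* was at 2.55, 2.54 and 2.44 times the level of *fat-1* in mutants of *malt-1*, of *ilc-17.1* and of *nfki-1*, against 2.96 times in *npr-1* animals.

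The ratio of *fat-6* to *fat-2*, consecutive steps from stearic to linoleic acid, separated *ilc-17.1* mutants from the other mutants. The value for *malt-1* mutants was 0.456, that for *ilc-17.1* mutants 0.300 and that for *nfki-1* mutants 0.428, against 0.306 in *npr-1* animals. A ratio within a genotype does not depend on how the genotypes were scaled to each other.

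*elo-1*, the elongase of polyunsaturated fatty acids, stayed near *npr-1*. It was at 716 FPKM in *malt-1* mutants, 691 FPKM in *ilc-17.1* mutants and 696 FPKM in *nfki-1* mutants, against 739.6 to 750.2 FPKM in *npr-1* animals, and its log2 differences were -0.05, -0.12 and -0.10. *elo-2*, which extends palmitic acid, was further below *npr-1*. Its level was 236, 202 and 233 FPKM in mutants of *malt-1*, of *ilc-17.1* and of *nfki-1*, against 271 to 275 FPKM in *npr-1* animals. The log2 differences were -0.20, -0.44 and -0.23, and that of *ilc-17.1* mutants passed the fold.

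*elo-5*, the elongase of branched-chain fatty acids, had the largest difference from *npr-1* among the 6 genes. It was at 266 FPKM in *malt-1* mutants, 198 FPKM in *ilc-17.1* mutants and 256 FPKM in *nfki-1* mutants, against 308 to 313 FPKM in *npr-1* animals. Its log2 differences were -0.21, -0.66 and -0.28, the last 2 past the fold. In *ilc-17.1* mutants the level was 0.634 times that of *npr-1* animals, and 3.10% of the 1583 genes with at least 100 FPKM in *npr-1* had a lower value of the difference. *elo-1* was at 2.70, 3.49 and 2.71 times the level of *elo-5* in mutants of *malt-1*, of *ilc-17.1* and of *nfki-1*, against 2.40 times in *npr-1* animals. In WBcel235, *elo-5* overlaps F41H10.3 on the opposite strand by 162 bases. F41H10.3 was at 20.1, 25.5 and 23.4 FPKM in the same mutants, with log2 differences of 0.02, 0.33 and 0.22 from *npr-1*, and whether the authors' counting used strand is not given in the sources used here.

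In *malt-1* mutants against *npr-1*, the members' differences thus ran from -0.21 (*elo-5*) to 0.40 (*fat-6*) on the log2 scale, with a median of -0.11. Of the 6 genes, 1 was higher and 0 were lower past the fold. Among all 13241 genes compared, 16.5% were higher and 12.7% lower, with a median of -0.0045, so a count of 1 in 6 was near the background. Abundant genes, whose levels are more like those of this family, were also counted: among the 1559 genes with at least 100 FPKM, 7.76% were higher, 8.79% were lower, and the median was -0.03.

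In *ilc-17.1* mutants against *npr-1*, *elo-5* and *elo-2* were lower past the fold, 0 members were higher, and *fat-1* was the only one of the 6 with a positive difference. The members' median was -0.17, and -0.0053 after rescaling to the same sum. Among all 13255 genes, 21.5% were higher and 20.8% lower, with a median of 0.0072. The picture among abundant genes was different, as 38.3% of the 1583 genes with at least 100 FPKM were lower and 7.83% higher, with a median of -0.18. The members' median was close to that value, with 3 members above it and 3 below, and 2 of 6 as the share of lower members lay between the shares in the 2 backgrounds.

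In *nfki-1* mutants against *npr-1*, *fat-2* and *elo-5* were lower past the fold, 0 members were higher, and the members' median was -0.16. Among all 13248 genes, 23.9% were higher and 18.4% lower, with a median of 0.0006. Of the 1572 genes with at least 100 FPKM, 10.6% were higher and 28.1% lower, and their median of -0.15 again lay near that of the members. A count of 2 lower members in 6 was not far from the share of abundant genes. The counts for this mutant depended on the scaling: when the FPKM of each genotype were rescaled to the same sum, *fat-6* was the member past the fold (0.27), and *fat-2* (-0.21) and *elo-5* (-0.17) were within it.

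**Figure D2:**
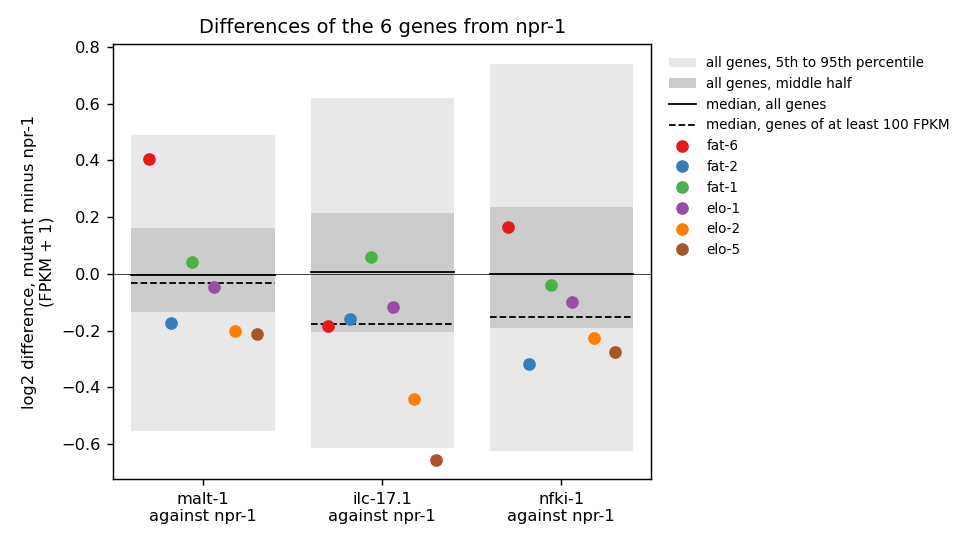
Log2 difference from *npr-1* (vertical axis) of the 6 genes in mutants of *malt-1*, of *ilc-17.1* and of *nfki-1*, each dot 1 gene and no error available. Shaded bands show where the central 50% and 90% of all genes lie, the solid line their median and the dashed line the median of genes with at least 100 FPKM in *npr-1*. In *malt-1* mutants *fat-6* is the highest of the 6 at 0.40, inside the band of 90% of genes. *elo-5*, at -0.66 in *ilc-17.1* mutants, lies below the band of 90% of genes there.

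The rescaling moved the median of all genes by 0.15 on the log2 scale in *ilc-17.1* mutants and by 0.09 in *nfki-1* mutants, and split the genes of *ilc-17.1* mutants into 36.5% higher and 9.82% lower, and those of *nfki-1* mutants into 30.8% higher and 10.7% lower. Relative to the median of all genes, the difference of each of the 6 genes moved by at most 0.02 in any comparison. This was nearly fixed in advance and is no check of the differences. Rescaling multiplies all values of a genotype by the same factor, so each gene and the median shift nearly equally. The members' median after rescaling was -0.12, -0.0053 and -0.06 in mutants of *malt-1*, of *ilc-17.1* and of *nfki-1*. Set against the median of all genes, *elo-5* stood at -0.66 in *ilc-17.1* mutants with the deposited scaling and at -0.64 after rescaling, and *fat-6* at 0.41 in *malt-1* mutants with either.

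All 3 comparisons were made against the same *npr-1* animals, so a difference that goes the same way in all of them is not 3 independent observations. *fat-2*, *elo-1*, *elo-2* and *elo-5*, 4 of the 6, had negative differences in all 3 mutants. After rescaling this held for 2, *elo-2* and *elo-5*, while *fat-2* in *ilc-17.1* mutants (0.01) and *elo-1* in *ilc-17.1* and *nfki-1* mutants (0.05 and 0.004) were just above 0. The number of members past the fold in all 3 mutants was 0, and 4 (*fat-6*, *fat-2*, *elo-2* and *elo-5*) passed it in at least 1. The shares of all genes with these patterns over the 3 mutants were not counted, so it cannot be said whether the members are unusual in them. With the deposited scaling, genes with at least 100 FPKM also had negative medians in mutants of *malt-1*, of *ilc-17.1* and of *nfki-1* (-0.03, -0.18 and -0.15).

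Direct comparisons between the mutants showed where they differed from each other. *fat-6* was at 444 FPKM in *ilc-17.1* mutants, against 667 FPKM in *malt-1* mutants, a log2 difference of -0.59, and 1.71% of the 1583 genes with at least 100 FPKM had a lower one. *elo-5* was at 199 FPKM in *ilc-17.1* mutants, against 269 FPKM in *malt-1* mutants, a difference of -0.44. These 2 genes were lower past the fold and 0 were higher, while among all 13400 genes 17% were higher and 18.9% lower (32.7% and 8.14% after rescaling). Of the 1583 genes with at least 100 FPKM, 5.50% were higher and 25.6% lower. The remaining differences were -0.24 for *elo-2*, -0.07 for *elo-1* and 0.02 for both *fat-2* and *fat-1*.

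The same 2 genes also separated *nfki-1* from *ilc-17.1* mutants. *fat-6* was at 573 FPKM in *nfki-1* mutants, against 445 FPKM in *ilc-17.1* mutants (0.36 on the log2 scale), and *elo-5* was at 261 FPKM, against 199 FPKM (0.39). Past the fold, 2 members were higher and 0 lower, and among all 13651 genes 16.6% were higher and 15.3% lower. Of the 1513 genes with at least 100 FPKM in *ilc-17.1* mutants, 8.26% were higher and 5.75% lower. *elo-2* differed by 0.23, *elo-1* by 0.03, *fat-1* by -0.09 and *fat-2* by -0.15.

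Of all pairs of genotypes, *nfki-1* and *malt-1* mutants had 0 of the 6 genes past the fold in either direction. All 6 differences of *nfki-1* mutants from *malt-1* mutants were negative, between -0.24 (*fat-6*, 562 FPKM in *nfki-1* mutants, against 664 FPKM in *malt-1* mutants) and -0.03 (*elo-2*), with a median of -0.08. Among all 13393 genes, 14.6% were higher and 12.2% lower (23.6% and 6.52% after rescaling). The shared sign was not particular to the members. Genes with at least 100 FPKM in *malt-1* mutants had a median of -0.11, with 4 members above it and 2 below. After rescaling, 4 of the 6 members' differences were above 0. The comparisons between mutants reuse the values already set against *npr-1*, and the differences taken directly and through *npr-1* were at most 0.012 apart.

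**Figure D3:**
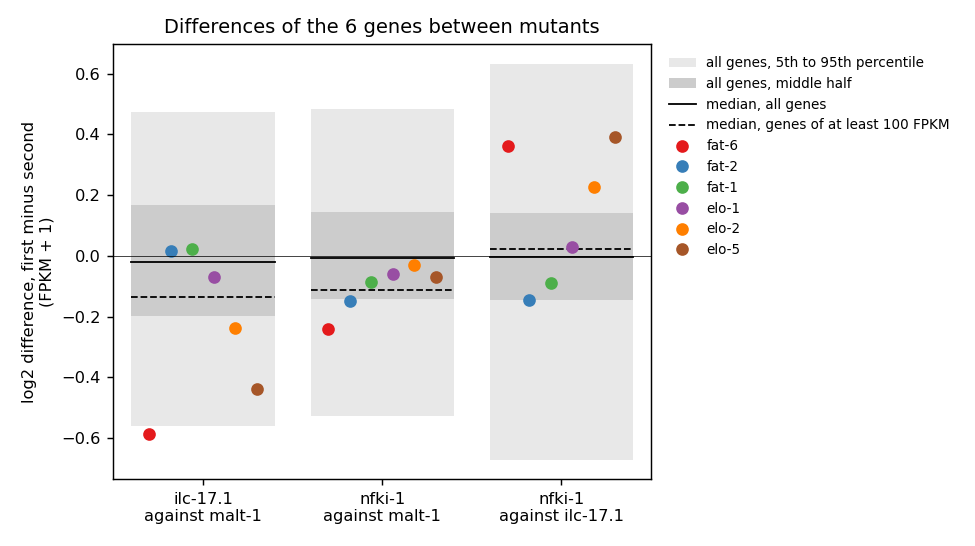
Log2 difference (vertical axis) of the 6 genes between pairs of mutants, named on the horizontal axis, with dots, bands and lines as in the plot of differences from *npr-1*. In both comparisons with *ilc-17.1* mutants *fat-6* and *elo-5* lie farthest from 0, and in *nfki-1* against *malt-1* mutants all 6 dots lie between -0.24 and -0.03.

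The other genes of fatty acid synthesis, its control and its use were followed in 8 lists holding 41 genes, of which 34 had at least 1 FPKM in *npr-1* and 6 were listed at 0. In *malt-1* mutants 4 of the 34 were higher and 1 lower past the fold, in *ilc-17.1* mutants 6 and 5, and in *nfki-1* mutants 5 and 5. Of all genes, 16.5%, 21.5% and 23.9% were higher and 12.7%, 20.8% and 18.4% lower, in the same order of mutants. Their medians were 0.03, 0.03 and 0.02, near those of all genes. After rescaling to the same sum, the counts were 4 higher and 1 lower in *malt-1* mutants, 12 and 1 in *ilc-17.1* mutants and 9 and 1 in *nfki-1* mutants, the lower gene being *dgat-2* each time. The rescaled shares of all genes were 15.2%, 36.5% and 30.8% higher and 12.04%, 9.82% and 10.7% lower, in the same order of mutants. The share of higher genes thus also rose among all genes in *ilc-17.1* and *nfki-1* mutants. The 4 genes that make saturated fatty acids (*pod-2*, *fasn-1*, *acly-1* and *acly-2*) were all at 0, as were the elongase gene *elo-4* and *acs-1*, an acyl-CoA synthetase gene that acts with *elo-5* in the branched-chain pathway.

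*elo-6*, which shares the branched-chain pathway with *elo-5*, was at 448, 406 and 441 FPKM in mutants of *malt-1*, of *ilc-17.1* and of *nfki-1*, against 526 to 534 FPKM in *npr-1* animals. Its log2 differences of -0.23, -0.39 and -0.26 had the same sign as those of *elo-5*, also after rescaling (-0.24, -0.23 and -0.16). The genes that supply the branched precursors were nearer to *npr-1*: of the 4 measured (*bckd-1A*, *bckd-1B*, *dbt-1* and *dld-1*), 0 passed the fold in any mutant, and all values lay between -0.04 and 0.16. This held with the deposited scaling only, since after rescaling *bckd-1B* and *dbt-1* were higher past the fold in *ilc-17.1* mutants (both 0.26) and *bckd-1B* in *nfki-1* mutants (0.26). Other elongase homologues of lower level were above *npr-1* in *malt-1* and *nfki-1* mutants. *elo-8* was at 36.2, 26.8 and 43.2 FPKM in mutants of *malt-1*, of *ilc-17.1* and of *nfki-1*, against 24.6 to 24.98 FPKM in *npr-1* animals (0.54, 0.10 and 0.77 on the log2 scale), *elo-7* differed by 0.32, -0.16 and 0.31, and *elo-9* by 0.21, 0.06 and 0.29. In all, 2, 0 and 3 of the 5 other elongase genes measured were higher, and 0, 1 and 1 were lower, in the same order of mutants. Of all genes, 16.5%, 21.5% and 23.9% were higher and 12.7%, 20.8% and 18.4% lower. After rescaling, 2, 1 and 3 of the 5 were higher and 0 lower in any, where 15.2%, 36.5% and 30.8% of all genes were higher.

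Enzymes that work beside the elongases and desaturases were lower than *npr-1* or close to it, and none of the 6 genes of these lists was past the fold after rescaling. Among the 3 genes for the remaining steps of elongation, *hpo-8*, a hydroxyacyl-CoA dehydratase gene, differed by -0.11, -0.31 and -0.29 in mutants of *malt-1*, of *ilc-17.1* and of *nfki-1*, and the reductase genes *let-767* and *art-1* stayed within the fold. Cytochrome b5 and its reductase pass electrons to the desaturases. The cytochrome b5 gene *cytb-5.1* differed by -0.14, -0.37 and -0.33 and the reductase gene *hpo-19* by -0.21, -0.21 and -0.27, so that 0, 1 and 2 of the 3 electron donor genes were lower and 0 were higher. Of all genes, 12.7%, 20.8% and 18.4% were lower. All 6 genes of these lists had at least 100 FPKM in *npr-1*. Of genes at that level, 8.79%, 38.3% and 28.1% were lower, with medians of -0.03, -0.18 and -0.15, so these enzymes were not set apart from other abundant genes. *cytb-5.2* differed by 0.14, -0.07 and -0.11.

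Known regulators of the desaturases that passed the fold were higher than *npr-1*. Of 9 such genes 8 were measured, *sbp-1* being under 1 FPKM, and 0, 3 and 1 were higher and 0 lower in mutants of *malt-1*, of *ilc-17.1* and of *nfki-1*, where 16.5%, 21.5% and 23.9% of all genes were higher. After rescaling, 0, 5 and 2 of the 8 were higher and 0 lower, where 15.2%, 36.5% and 30.8% of all genes were higher. *hlh-30*, the homologue of the lysosome and lipid regulator TFEB, was at 53.8, 72.4 and 69.0 FPKM in these mutants, against 45.6 to 46.2 FPKM in *npr-1* animals, with log2 differences of 0.23, 0.64 and 0.58. The nuclear receptor genes *nhr-64* (0.19, 0.33 and 0.23) and *nhr-49* (0.04, 0.28 and 0.08) passed the fold in *ilc-17.1* mutants. *mdt-15*, the mediator subunit gene through which NHR-49 acts on *fat* genes, differed by -0.18, 0.13 and -0.02, and after rescaling it too was past the fold in *ilc-17.1* mutants (0.29). Of the 5 genes that adjust membrane fluidity, 1, 2 and 1 were higher and 0 lower, beside 16.5%, 21.5% and 23.9% of all genes higher. After rescaling 1, 3 and 2 were higher, beside 15.2%, 36.5% and 30.8% of all genes. With the deposited scaling *paqr-1*, an adiponectin receptor homologue, differed by 0.26, 0.39 and 0.34 and *iglr-2*, whose product partners PAQR-2, by 0.10, 0.34 and 0.21.

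The largest difference in these lists was that of *dgat-2*, which encodes an acyltransferase of triacylglycerol synthesis. It was at 40.0 FPKM in *malt-1* mutants, 29.5 FPKM in *ilc-17.1* mutants and 35.3 FPKM in *nfki-1* mutants, against 60.9 to 61.8 FPKM in *npr-1* animals, with log2 differences of -0.59, -1.04 and -0.78. The acyl-CoA synthetase gene *acs-22*, whose product works with DGAT-2 at lipid droplets, differed by 0.27, 0.55 and 0.19, in the opposite direction. Of the other 4 genes for the use of fatty acids, *pcyt-1*, of phosphatidylcholine synthesis, was lower in *ilc-17.1* mutants (-0.33, and -0.16 after rescaling), and *pmt-1*, *pmt-2* and *plin-1* were within the fold in all 3.

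**Figure D4:**
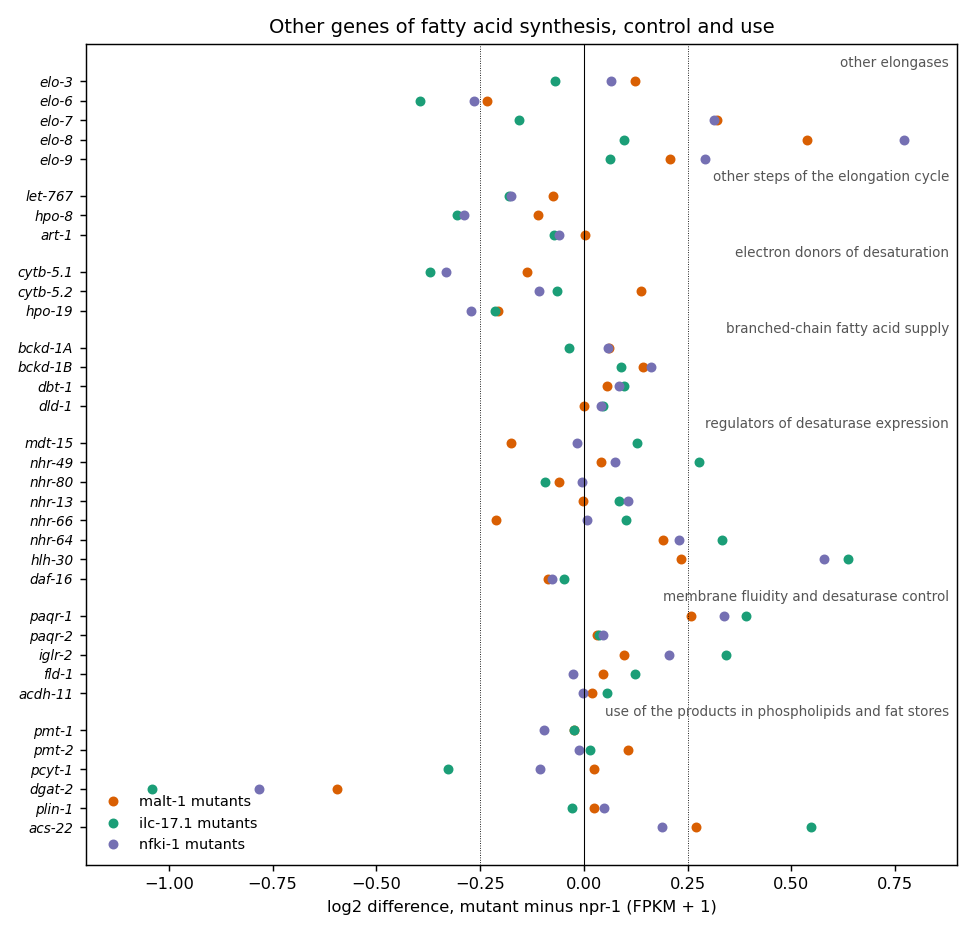
Log2 difference from *npr-1* (horizontal axis) of the 34 measured genes of fatty acid synthesis, control and use, grouped by list, with 1 dot for each mutant and dotted lines at the fold of 0.25. *dgat-2* lies farthest to the left at -1.04, -0.78 and -0.59, and *elo-8* (0.77 in *nfki-1* mutants) and *hlh-30* (0.64 in *ilc-17.1* mutants) farthest to the right.

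In whole animals, fewer cells of a type and less RNA per cell cannot be told apart. Markers of the intestine were present, with 6 of 8 genes measured (*elt-7* was under 1 FPKM and *ifb-2* listed at 0). None of the 6 passed the fold against *npr-1* in any mutant (after rescaling, 2 were higher in *ilc-17.1* mutants), their medians were -0.08, -0.01 and -0.12 in mutants of *malt-1*, of *ilc-17.1* and of *nfki-1*, and the list summed to 1895, 2044 and 1940.5 FPKM in these mutants, against 2063 to 2093 FPKM in *npr-1* animals. Other marker lists held genes past the fold, where 16.5%, 21.5% and 23.9% of all genes were higher and 12.7%, 20.8% and 18.4% lower. All 6 yolk genes, made by the adult intestine, were higher in each mutant, with sums of 689, 1514 and 1469.6 FPKM, against 465 to 471 FPKM in *npr-1* animals. Of 5 germline genes 3, 4 and 3 were lower, with sums of 567, 469.8 and 558 FPKM, against 692 to 702 FPKM in *npr-1* animals. Of 6 oocyte and eggshell genes, 4 were lower in *malt-1* mutants, and 3 and 2 were higher in *ilc-17.1* and *nfki-1* mutants. Body wall muscle genes were higher in 1, 3 and 2 of 4 cases, 1, 1 and 2 of the 2 measured epidermal genes were higher, with *che-14* at 0, and of 5 neuronal genes 2 were higher in *ilc-17.1* mutants while 2 were lower there and 1 in *nfki-1* mutants. After rescaling, 0 neuronal genes were lower in any mutant, and 2 were higher in *ilc-17.1* mutants, with 1 higher in *nfki-1* mutants. Oocyte and eggshell genes then were lower in 3 cases in *malt-1* mutants and higher in 6 and 3 cases in *ilc-17.1* and *nfki-1* mutants, germline genes were lower in 3, 3 and 2 cases and higher in 1 in *ilc-17.1* mutants, muscle genes were higher in 1, 3 and 3 cases and epidermal genes in 1, 2 and 2, and the yolk counts stayed at 6 in each mutant. The part of these markers in the differences of the desaturase and elongase genes was not tested.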

How the data were processed

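Stranded polyA libraries were sequenced as single-end reads. Per the labels, the authors used Trim Galore 0.4.3, TopHat2 2.1.0, Cufflinks 2.2.1 and Cuffdiff. The genome build, the annotation and use of strand in counting are not given in the sources used here. The deposited table holds FPKM computed by the authors, 1 value pooled per genotype in each of 7 comparisons. Of these, 2 are the same pair in reverse and hold the same values, so 6 were used. It has 0 columns of values per sample. Its columns of the authors' own comparisons hold log2 fold changes, test statistics, p-values and q-values, and were not used. The spelling ilk17 was read as *ilc-17.1*.

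Python 3.11.15 with pandas 2.3.3 was used. Differences took a pseudocount of 1 FPKM and genes with at least 1 FPKM in the genotype set against, with the fold of 0.25 from the study's methods. The code was tested on simulated data. Genes were named through WormBase identifiers, and the table and WBcel235 gave the same chromosome for 46059 of 46059 shared genes and the same start for 46.0% of them. The members and lists were chosen with earlier results of these data known. All 10 members are named, and of each pathway list the genes past 0.5 on the log2 scale in at least 1 mutant and otherwise up to 4 with the largest mean absolute difference. Marker lists are given by counts. Genes singled out beyond that (those listed at 0, neighbours at a locus and genes within the fold) were named after their values were seen. Alternatives were another pseudocount, filter, fold, centring or scaling, and mean FPKM over comparisons.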

Additional observations from a re-analysis of the deposited data

How the results depend on the processing

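No paired analysis was possible because the deposited table has no values per sample, and for the same reason no library could be left out. The 6 genes' differences in 6 comparisons were recomputed under 10 alternatives, 1 of them, restriction to genes with at least 100 FPKM, chosen after seeing the data. Of the 360 values, 350 stayed on their side of the fold, 9 no longer passed it, 1 newly passed it and 0 of those past the fold changed sign. Much of this was fixed in advance. The filters cannot alter the differences of genes this abundant, and a pseudocount hardly can. Every changed call came from the fold of 0.5 or from the rescaling. With a fold of 0.5 on the log2 scale, 0 members were higher in *malt-1* mutants, 1 was lower in *ilc-17.1* mutants (*elo-5*) and 0 were lower in *nfki-1* mutants, each against *npr-1*, 1 was lower in *ilc-17.1* against *malt-1* mutants (*fat-6*), and 0 were higher in *nfki-1* against *ilc-17.1* mutants. With FPKM rescaled to the same sum in each genotype, 1 member was higher and 0 were lower in *nfki-1* mutants against *npr-1*, and the members' median was 0.02 in *ilc-17.1* and 0.04 in *nfki-1* against *malt-1* mutants and 0.05 in *nfki-1* against *ilc-17.1* mutants. No setting using pseudocounts of 0.1 FPKM or none, a filter of 5 FPKM or none, or centring on the median of all genes changed a count by over 1.5 times. The limits are those of the table: no replicate error, an unknown depth, and 4 of the 10 genes listed at 0.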
